A study of Mus musculus with 24 samples.

Results

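Embryoid bodies (EBs) collected at day 12 after exposure to FK506 and cyclosporin A were compared with EBs collected at day 8 without the drugs, which shows how far neural and mesenchymal expression had moved in the treated cultures past the point at which the untreated ones stood at day 8. The comparison used 6 of the 24 arrays of the series, 3 per group, chosen by the treatment and day in their titles, and covered 19938 genes. EBs are free-floating aggregates in which embryonic stem cells differentiate into mixed cell types. All arrays came from 1 line, 46C mouse embryonic stem cells, whose Sox1 gene holds a fluorescent reporter, and the design text describes 3 independent differentiation experiments. No label ties an array number to an experiment. Cells were plated on gelatin with LIF on day 1, moved to low attachment dishes on day 3, plated as EBs on day 7 and given serum-free medium from day 8, in treated and untreated cultures alike. The treated EBs received FK506 at 100 ng/ml and cyclosporin A at 1 µg/ml together from day 3 to day 8, so the treated day 12 EBs were collected after the drugs had ended, and the untreated day 8 EBs when serum-free culture began. The groups differ in day, in drug and in time spent in serum-free medium, and within the contrast these cannot be told apart. Values of the untreated day 12 EBs and of the treated day 8 EBs are therefore given beside it.

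FK506 and cyclosporin A bind different immunophilins, and both complexes block calcineurin, a calcium-dependent phosphatase that dephosphorylates NFAT transcription factors. When signalling by bone morphogenetic proteins (BMPs) is low, differentiating stem cells pass from an epiblast state to Sox1- and Pax6-positive neural progenitors and then to neurons, while BMP, Wnt and Nodal signals direct cells through a primitive streak state to mesoderm and endoderm. Mesenchymal cells derived from mesoderm or neural crest are known for secreting fibrillar collagens and the small proteoglycans that organise them.

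The values are log2 signals of Affymetrix Mouse Gene ST arrays, 1 probe set per gene, and triplets of values below follow replicates 1, 2 and 3. Array medians lay between 7.80 and 7.88, and since detection calls were not used here, low signals may lie within background. The smallest SD of the difference between any pair of arrays was 0.175, and the median SE of a difference between groups was 0.092. A gene was called where limma's adjusted p was under 0.05. RNA came from whole EBs, in which fewer cells of a type and less RNA per cell cannot be told apart. The marker genes of neural, neuronal, mesenchymal, cardiac, endothelial, blood, endodermal, epithelial and undifferentiated cells had mean signals from 7.35 (Zfp42) to 13.06 (Dcn) at treated day 12.

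Between treated day 12 and untreated day 8, 7754 genes were called (38.9%), of which 3654 were higher at treated day 12 (18.3%) and 4100 lower (20.6%). Larger differences were mostly upward: 748 genes (3.75%) were higher by 2-fold or more, and 246 (1.23%) lower. The median difference over all genes was -0.036. For 21.2% of genes all 3 treated day 12 arrays lay above all 3 untreated day 8 arrays, and for 25.9% below. Against untreated EBs of the same day, treated day 12 EBs had 1493 genes higher (7.49%) and 2070 lower (10.4%), and its 3 arrays lay above the others for 15.4% of genes and below them for 17.1%. From day 8 to day 12 without drugs, 3749 genes were higher (18.8%) and 3965 lower (19.9%). These 3 comparisons share arrays in pairs, so their values are set side by side and not tested against each other. Within the treated day 12 group, replicate 1 had the lowest means of the neural progenitor and neuronal lists and replicate 2 the lowest mean of the matrix list. Within the untreated day 8 group, replicate 2 had the lowest means of the mesenchymal, cardiac and endothelial lists. What sets these arrays apart was not tested. Where a list below has a count of 0 in a direction, no member had an unadjusted limma p under 0.05 in that direction either, apart from Tcf15, a mesenchymal regulator, against untreated day 8.

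**Figure D1:**
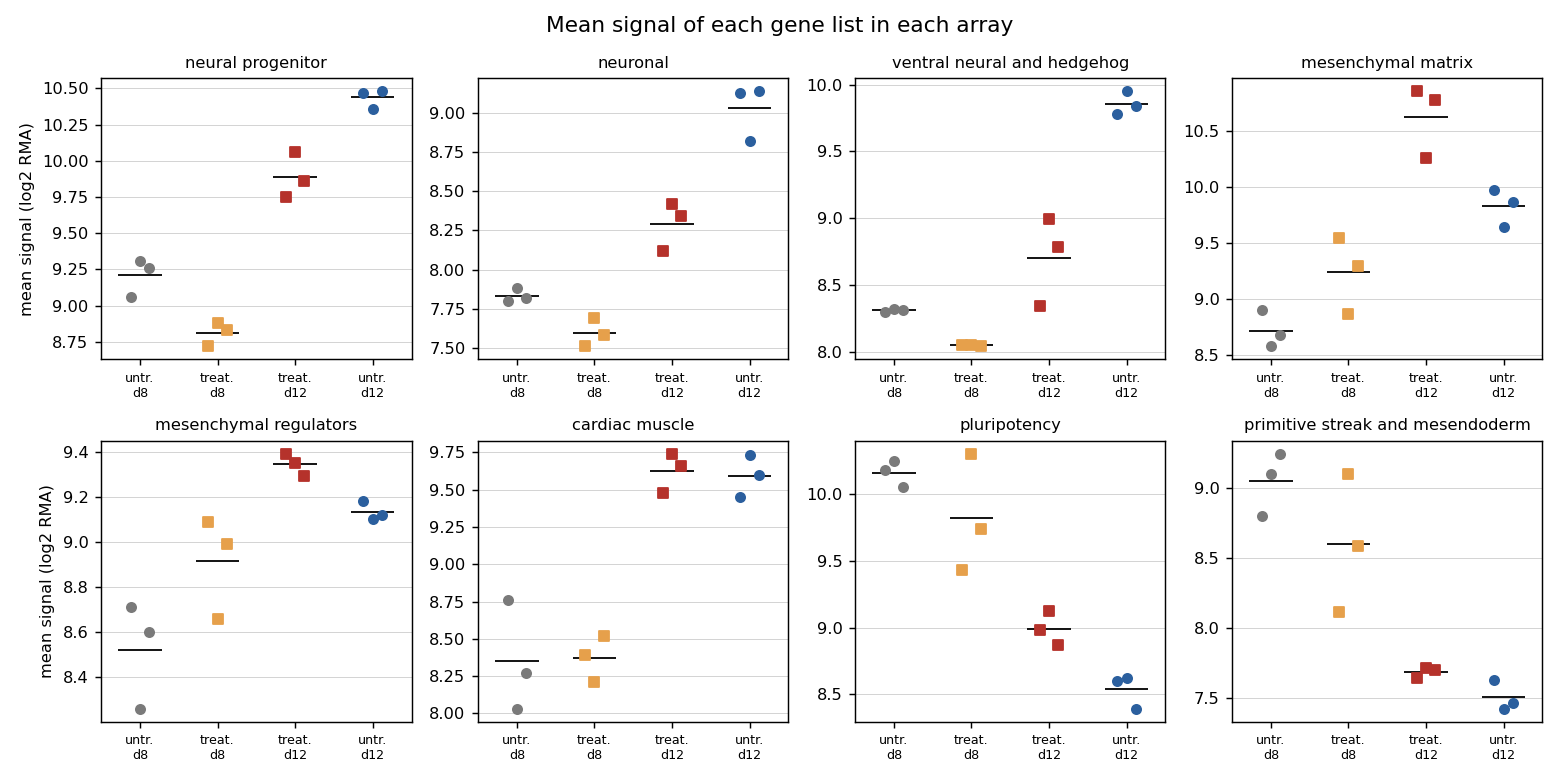
Mean log2 signal over the measured members of 8 gene lists (vertical axis of each panel) in each array of 4 groups (horizontal axis), with points for arrays and lines for the mean of 3. The neural lists of the treated day 12 EBs lie between the untreated day 8 and untreated day 12 EBs, while their mesenchymal matrix list lies above both.

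The mesenchymal matrix genes showed the largest differences. Of 36 measured members of the list, which covers collagens, small leucine-rich proteoglycans and the enzymes and receptors of fibroblast-like cells, 35 were higher at treated day 12 than at untreated day 8 and 0 lower, against 18.3% of all genes higher. Thy1 was the exception at -0.22. The median difference was 1.43. The list mean was 8.90, 8.58 and 8.68 in the untreated day 8 arrays and 10.86, 10.26 and 10.78 in the treated day 12 arrays. It was 9.98, 9.65 and 9.87 in untreated day 12 arrays and 9.55, 8.87 and 9.30 in treated day 8 arrays, so every treated day 12 array lay above all arrays of the other 3 groups.

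Lumican (Lum), a keratan sulfate proteoglycan that spaces collagen fibrils, had the largest rise of any gene named here. Its signal was 6.16, 5.22 and 5.39 at untreated day 8 and 11.95, 11.34 and 11.88 at treated day 12. The groups did not overlap, and the difference was 6.13 (SE 0.49, adjusted p = 2.87e-09), a 70.2-fold difference. Untreated day 12 arrays had 10.68, 9.81 and 10.56, and the treated day 12 EBs stood 1.37 above them (adjusted p = 0.0557). This was called with the replicate number as a block (0.0234) and in fits to these 6 arrays without the block (0.00742) or with it (0.000102). The treated day 8 arrays spread widely, at 9.28, 5.82 and 8.28.

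Decorin (Dcn), a related proteoglycan that also binds TGF-beta, went from 8.14, 7.72 and 7.98 to 13.32, 12.72 and 13.14, with no overlap, a difference of 5.11 (SE 0.32, adjusted p = 9.77e-11). Its untreated day 12 signals were 12.33, 11.31 and 12.07, and the difference of 1.16 from these (adjusted p = 0.0148) was no longer called without untreated day 12 replicate 2 (0.113) or treated day 12 replicate 1 (0.0734) or 3 (0.0584).

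Lysyl oxidase (Lox), the enzyme that cross-links collagen, was flat across the day 8 arrays, at 6.48, 6.79 and 6.60 without the drugs and 6.60, 6.30 and 6.52 with them. At treated day 12 it was 11.36, 9.95 and 11.22, a difference of 4.22 (SE 0.25, adjusted p = 5.34e-11). Replicate 2 was the lowest of the treated day 12 arrays, yet it lay above the untreated day 12 signals of 9.57, 8.58 and 9.07, from which the treated group differed by 1.77 (adjusted p = 4.49e-05).

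The fibril-forming collagens rose with them. Col3a1 went from 8.71, 8.25 and 8.27 at untreated day 8 to 12.27, 11.56 and 12.13 at treated day 12, a difference of 3.58 (SE 0.23, adjusted p = 1.55e-10), and stood 1.37 above untreated day 12 (adjusted p = 0.000261). Col1a1 was 10.00, 9.36 and 9.56 and then 12.84, 12.37 and 12.72, a difference of 3.00 (SE 0.22, adjusted p = 8.95e-10), with 1.09 over untreated day 12 (adjusted p = 0.00131). In neither gene did the treated day 12 arrays overlap those of untreated day 8 or day 12. The collagens Col14a1, which sits on fibril surfaces, and Col6a1, a microfibril chain, were higher than at untreated day 8 by 2.48 and 1.81.

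Further small proteoglycans stood above both untreated groups. Fibromodulin (Fmod) was 6.32, 6.36 and 6.20 at untreated day 8, 10.64, 8.83 and 10.46 at treated day 12 and 8.32, 7.60 and 7.74 at untreated day 12. Osteoglycin (Ogn) was 5.09, 5.15 and 4.96, then 8.72, 6.38 and 8.57 at treated day 12, against 6.35, 5.43 and 5.54 at untreated day 12. Both were called over untreated day 8 (3.68 and 2.82) and over untreated day 12 (2.09 and 2.12), with treated day 12 replicate 2 far below the other arrays of its group.

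Periostin (Postn), a matricellular protein of fibroblasts, was uneven at untreated day 8, at 10.41, 7.32 and 8.68, and even at treated day 12, at 13.10, 12.95 and 12.98. The difference was 4.21 (SE 0.50, adjusted p = 7.11e-07). Untreated day 12 arrays had 12.67, 12.47 and 12.65, so that the treated group stood 0.41 higher, which was not called (adjusted p = 0.628, and 0.562 with the replicate number as a block). In fits to these 6 arrays alone it was called without the block (0.0141) and with it (0.00676).

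Of the 36 matrix genes, 26 were higher in treated EBs than at untreated day 12 and 0 lower, where 7.49% of all genes were higher. The median difference was 0.61. Without treated day 12 replicate 1, 17 were called higher. Of the same 36 genes, 25 were higher at untreated day 12 than at untreated day 8, with a median of 0.70.

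**Figure D2:**
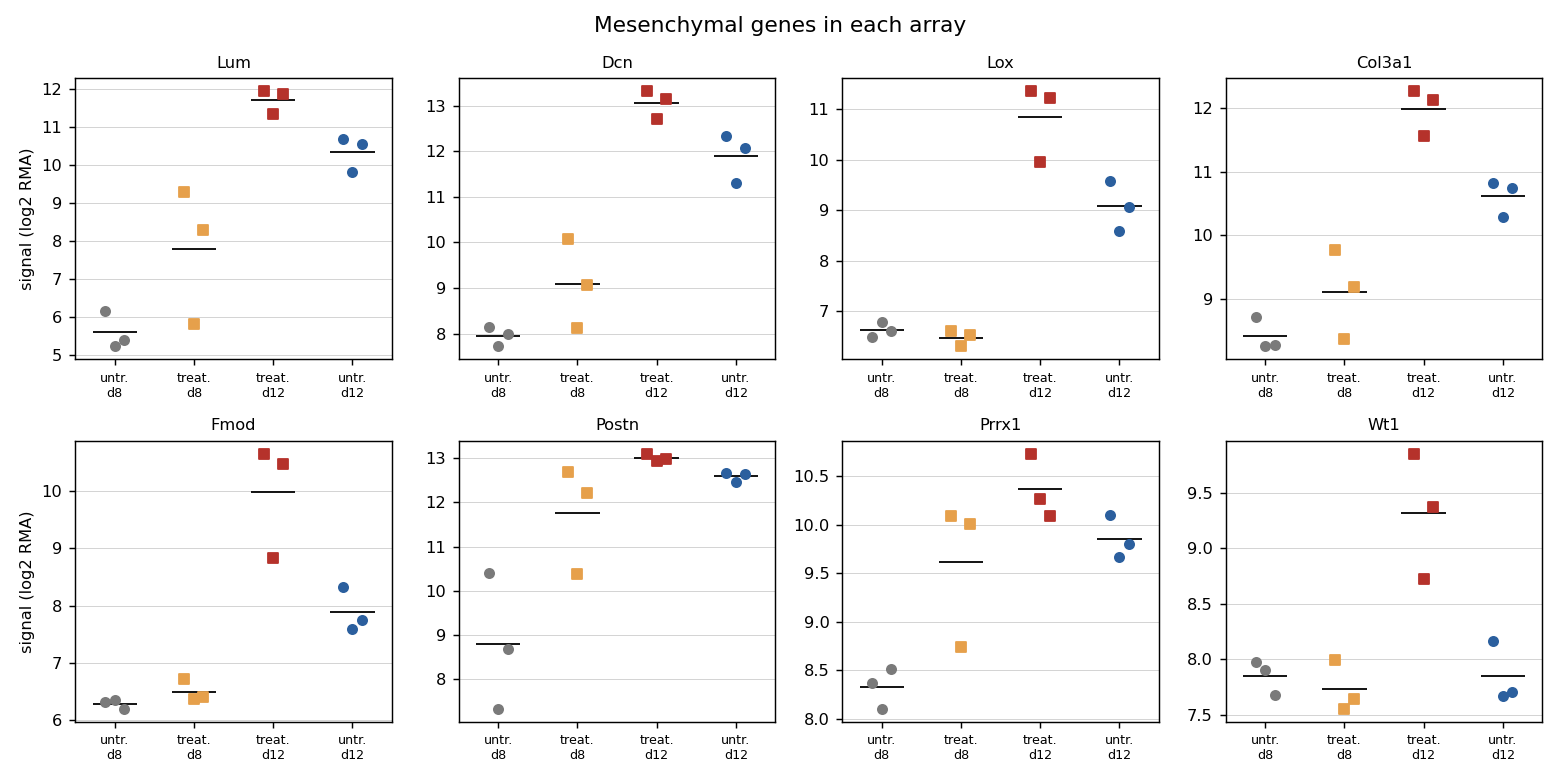
Log2 signal (vertical axis of each panel) of 8 mesenchymal genes in each array of 4 groups (horizontal axis), with points for arrays and lines for the mean of 3. In every panel but Prrx1 all treated day 12 arrays lie above all untreated day 12 arrays, and in Postn and Prrx1 the day 12 groups lie closer together.

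Transcription factors of mesenchyme moved in the same direction but by less. Of 26 measured regulators, 16 were higher at treated day 12 than at untreated day 8 and 0 lower, with a median difference of 0.76. Prrx1, a homeobox factor of limb and craniofacial mesenchyme, was 8.37, 8.10 and 8.51 at untreated day 8 and 10.73, 10.27 and 10.09 at treated day 12. The groups did not overlap and differed by 2.04 (SE 0.23, adjusted p = 3.93e-07). Its untreated day 12 signals were 10.10, 9.67 and 9.80, from which the treated EBs differed by 0.51 (adjusted p = 0.145, 0.0832 with the replicate number as a block, and 0.0061 with that block in a fit to these 6 arrays).

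Tcf21, a factor of epicardial and visceral organ mesenchyme, was higher by 2.01, and Osr1, a factor of intermediate and lateral mesoderm, by 1.53. The zinc finger repressors Zeb1 and Zeb2, which act in epithelial to mesenchymal transition, were higher by 1.43 and 1.17. Twist1 was higher by 0.96 (SE 0.25, adjusted p = 0.0034), and its treated day 8 signals of 10.09, 8.60 and 9.95 reached above those of treated day 12, at 9.49, 9.50 and 9.02. Foxf1, a target of hedgehog signalling in lateral mesoderm, had a difference of 0.65 that missed the threshold (adjusted p = 0.0641) and passed it without untreated day 8 replicate 1 (0.0355) or 3 (0.0489).

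Wt1, a marker of mesothelium and kidney precursors, exceeded untreated EBs of both days. It was 7.97, 7.90 and 7.68 at untreated day 8, 8.16, 7.67 and 7.70 at untreated day 12 and 9.85, 8.72 and 9.37 at treated day 12. The treated day 12 arrays lay above all 6 others, by 1.47 (adjusted p = 1.78e-06) and 1.48 (adjusted p = 1.33e-05). Over the whole regulator list, 6 genes were higher than at untreated day 12, or 23.1%, against 7.49% of all genes. That count was 10 in a fit to these 6 arrays with the replicate number as a block. It was 3 without untreated day 12 replicate 2 or treated day 12 replicate 1. Foxd1, Foxf2 and Foxc1 were lower, or 11.5%, near the 10.4% of all genes. The Foxc1 call was lost after quantile normalization (adjusted p = 0.0523), without any one of the untreated day 12 arrays (0.0621, 0.0734 and 0.0861) and without treated day 12 replicate 1 (0.114) or 3 (0.099). Foxd1, which also marks forebrain progenitors, was 1.63 lower than at untreated day 12 though 0.69 higher than at untreated day 8.

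In the smooth muscle list, 9 of 15 contractile genes were higher than at untreated day 8 and 1, Cnn1, lower, with a median of 0.42. With genes below the 40th percentile of mean signal left out, 5 were higher. Actg2, an enteric smooth muscle actin, went from 7.58, 7.10 and 7.07 to 9.94, 9.63 and 9.88, a difference of 2.57 (SE 0.26, adjusted p = 6.35e-08), and stood 1.17 above untreated day 12 (adjusted p = 0.00257). The intermediate filament desmin (Des) was higher than at untreated day 8 by 1.64 and than at untreated day 12 by 0.70, with no overlap in either case. Acta2, the smooth muscle alpha-actin, was already at 12.92, 12.27 and 12.33 at untreated day 8 and rose by 0.96.

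The neural lists took a middle place. Of 26 neural progenitor genes, 17 were higher at treated day 12 than at untreated day 8 and 2 lower, against 18.3% and 20.6% of all genes, with a median difference of 0.54. The same list had 2 higher and 15 lower against untreated day 12, where 10.4% of all genes were lower, with a median of -0.65. Untreated EBs had 21 of these genes higher at day 12 than at day 8, with a median of 1.23. The list mean was 9.06, 9.31 and 9.26 at untreated day 8, 9.75, 10.06 and 9.86 at treated day 12 and 10.47, 10.36 and 10.48 at untreated day 12. At treated day 8 it was 8.72, 8.88 and 8.83, below the untreated arrays of that day. The 4 groups did not overlap in this mean.

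Pax6, the paired-box factor of neural ectoderm, was 7.37, 7.78 and 7.40 at untreated day 8 and 8.03, 8.78 and 8.19 at treated day 12. The groups did not overlap and differed by 0.81 (SE 0.16, adjusted p = 0.00024). At untreated day 12 it was 9.56, 9.31 and 9.78, above every treated array, and the treated EBs were 1.22 lower (adjusted p = 1.7e-05).

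Rfx4, a regulator of neural tube cilia and patterning, rose from 6.53, 6.74 and 6.74 to 7.81, 8.66 and 8.39, a difference of 1.61 (SE 0.15, adjusted p = 2.96e-08), while untreated day 12 arrays had 9.91, 9.94 and 9.70. Fabp7, the fatty acid binding protein of radial glia, rose from 10.39, 11.03 and 11.20 to 11.79, 12.82 and 12.47, a difference of 1.49 (SE 0.29, adjusted p = 0.00025). Its deficit against untreated day 12 (13.37, 12.88 and 13.28) was 0.82, close to the threshold (adjusted p = 0.0553, 0.0523 with the replicate number as a block, and 0.0392 with that block in a fit to these 6 arrays). It was called without treated day 12 replicate 2 (0.0192). In each of these genes replicate 1 was the lowest treated day 12 array.

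Some classical progenitor markers did not stand above the untreated day 8 EBs. Nestin (Nes), the intermediate filament of neural stem cells, was 8.54, 8.89 and 8.91 at untreated day 8 and 8.61, 9.31 and 9.06 at treated day 12, an overlap with a difference of 0.21 (adjusted p = 0.373). It was 10.15, 9.98 and 10.10 at untreated day 12, 1.09 above the treated EBs (adjusted p = 0.00012). Sox1 lay between 8.61 and 8.93 in all 6 arrays, a difference of -0.07 (adjusted p = 0.57), and its deficit of 0.32 against untreated day 12 (adjusted p = 0.0117) was not called in fits to these 6 arrays without the replicate block (0.0759) or with it (0.0616), without treated day 12 replicate 1 (0.102) or without untreated day 12 replicate 3 (0.06). Sox2 and Zic2, which stem cells also express, were the 2 lower members, at -0.59 and -1.16. The Sox2 call was lost without untreated day 8 replicate 2 (adjusted p = 0.162) or 3 (0.0756) or treated day 12 replicate 1 (0.257) or 3 (0.132). Between 1 and 4 members were called lower when single arrays were left out.

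The members with the largest rises are also expressed outside the nervous system. Nr2f2 and Nr2f1, orphan nuclear receptors of brain, mesenchyme and vessels, were higher by 2.47 and 2.20. The growth factor pleiotrophin (Ptn) went from 7.71, 8.22 and 8.14 to 11.00, 10.05 and 10.38, and the adhesion molecule Ncam1 from 9.45, 9.36 and 9.69 to 11.88, 11.25 and 11.63. Ptn and Ncam1 were the 2 members that were called above untreated day 12, by 0.72 and 0.65. The Ptn call over untreated day 12 (adjusted p = 0.00939) was lost without untreated day 12 replicate 2 (0.0631) or treated day 12 replicate 1 (0.0913). In Ptn and Ncam1 replicate 2, the array lowest in matrix genes, was the lowest of the treated day 12 arrays, and the part of mesenchymal cells in these signals was not tested.

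**Figure D3:**
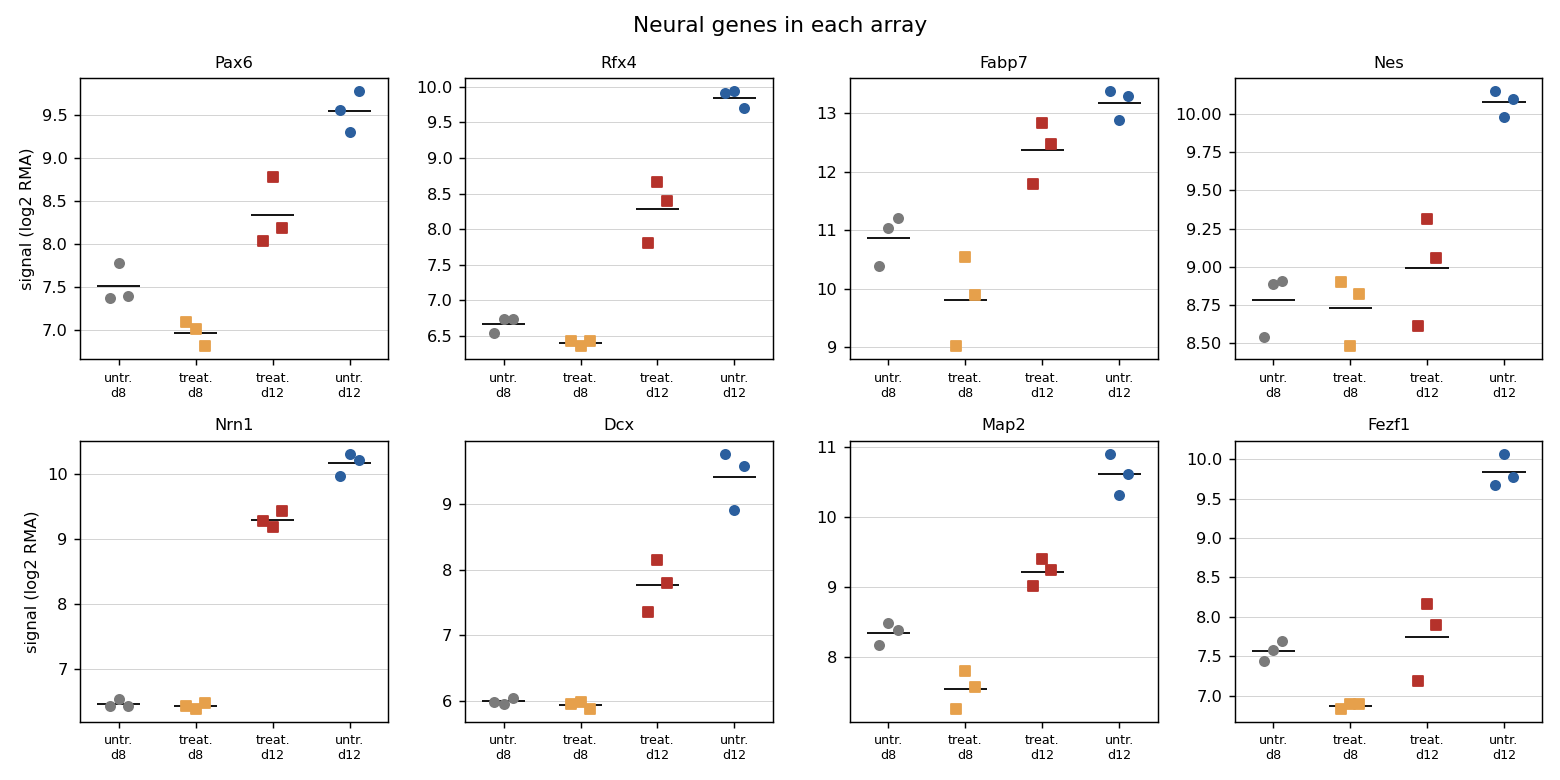
Log2 signal (vertical axis of each panel) of 8 neural genes in each array of 4 groups (horizontal axis), with points for arrays and lines for the mean of 3. Pax6, Rfx4, Nrn1, Dcx and Map2 at treated day 12 lie above untreated day 8 and below untreated day 12, while Nes and Fezf1 overlap untreated day 8.

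Proneural factors, which commit progenitors to a neuronal fate, and the Notch genes that restrain them were split in the same way. Of 21 measured members, 11 were higher than at untreated day 8 and 2, Dll3 and Hes1, lower (1 without untreated day 8 replicate 3), with a median of 0.34. Neurod4 was 5.39, 5.24 and 5.36 at untreated day 8 and 6.75, 8.35 and 7.97 at treated day 12, a difference of 2.36 (SE 0.24, adjusted p = 1.01e-07). Neurod1 was higher by 1.39 and Neurog2 by 0.47, and both were lower than at untreated day 12, by 1.42 and 1.04. Dll4, a Notch ligand that endothelium also makes, was higher by 1.16 and differed from untreated day 12 by -0.06 (adjusted p = 0.831).

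In treated EBs 16 of the 21 were lower than at untreated day 12, with a median of -0.65, and 1 was higher. That gene was Atoh1, a factor of cerebellar granule neurons, hair cells and gut secretory cells, at 7.90, 7.79 and 7.48 against 7.08, 6.89 and 7.21 at untreated day 12 and 6.75, 6.80 and 6.76 at untreated day 8. Its treated day 12 arrays lay above all 6 untreated arrays, by 0.95 over day 8 (adjusted p = 1.82e-06) and 0.66 over day 12 (adjusted p = 0.000545). Lfng, a modifier of Notch receptors, was 1.13 lower than at untreated day 12 with a difference of 0.07 from untreated day 8 (adjusted p = 0.788).

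Neuronal genes lay above untreated day 8 and below untreated day 12. Of 39 measured members, 21 were higher than at untreated day 8 and 4 lower, with a median of 0.34. Against untreated day 12, 32 of 39 were lower and 0 higher, with a median of -0.70. With genes below the 40th percentile of mean signal left out, which drops members, these counts were 11 higher and 19 lower. The list mean was 7.80, 7.88 and 7.82 at untreated day 8, 8.12, 8.42 and 8.34 at treated day 12 and 9.13, 8.82 and 9.14 at untreated day 12.

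Neuritin (Nrn1), a secreted promoter of neurite growth, had the smallest p of the list. It was 6.43, 6.53 and 6.43 at untreated day 8 and 9.27, 9.18 and 9.43 at treated day 12, a difference of 2.83 (SE 0.10, adjusted p = 1.09e-14). The untreated day 12 arrays, at 9.97, 10.31 and 10.22, were higher still, by 0.87.

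Doublecortin (Dcx), a microtubule protein of migrating neurons, was flat at day 8, at 5.99, 5.96 and 6.05 without drugs and 5.96, 5.98 and 5.88 with them. It reached 7.35, 8.15 and 7.80 at treated day 12, a difference of 1.77 (SE 0.17, adjusted p = 2.96e-08), and 9.76, 8.91 and 9.57 at untreated day 12. The treated EBs were thus 1.64 below untreated EBs of their own day (adjusted p = 9.44e-07), with no overlap on either side.

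Map2, the dendritic microtubule protein, went from 8.17, 8.49 and 8.39 to 9.02, 9.40 and 9.24, a difference of 0.87 (SE 0.13, adjusted p = 1.94e-05), and was 1.39 below untreated day 12. Neuronal tubulin Tubb3 and the RNA-binding protein Elavl3 were higher by 0.66 and 0.77 and below untreated day 12 by 0.87 and 1.12. The early neuronal transcription factors Ebf3, Ebf2 and Nhlh1 were higher by 2.08, 1.72 and 1.81. They differed from untreated day 12 by -0.66, -0.60 and -1.20, each called.

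The 4 lower members were Stmn2, Gad1, Gad2 and Syp. Stmn2, a regulator of neuronal microtubules, was already high at untreated day 8, at 11.78, 12.39 and 11.99, and was 10.49, 10.94 and 10.70 at treated day 12, a difference of -1.34 (SE 0.18, adjusted p = 3.39e-06). Its untreated day 12 signals were 11.71, 11.28 and 11.66, again above the treated EBs. Gad1 and Gad2, the enzymes that make the transmitter GABA, differed by -0.54 and -0.52, and Syp, a synaptic vesicle protein, by -0.28. The Syp call (adjusted p = 0.0233) was lost without untreated day 8 replicate 2 (0.092) or 3 (0.102), without treated day 12 replicate 1 (0.118) or 2 (0.093) and in a fit to the 6 arrays (0.0849).

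**Figure D4:**
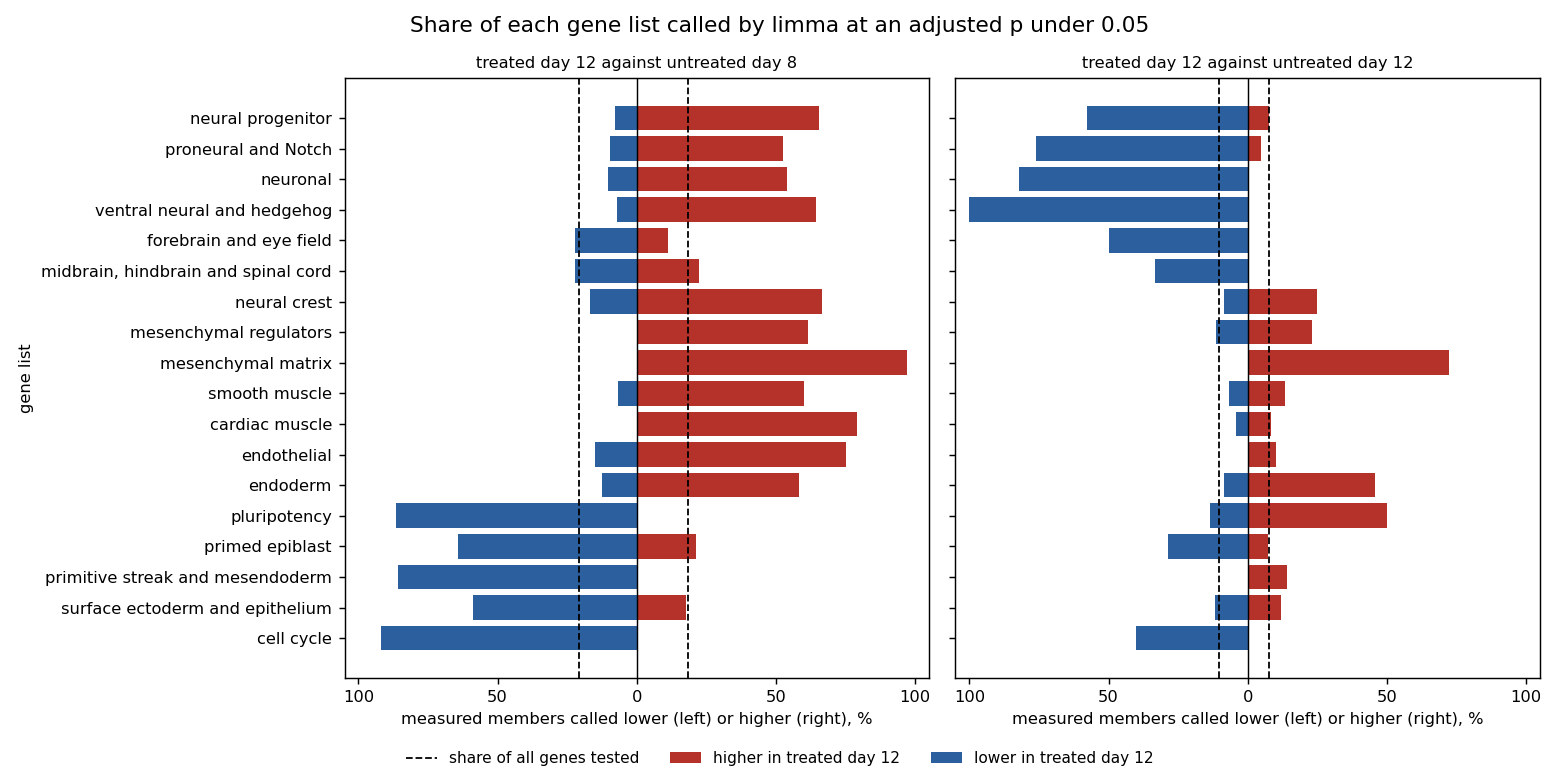
Share of the measured members of 18 gene lists (vertical axis) called lower (blue, to the left) or higher (red, to the right) in treated day 12 EBs, in percent on the horizontal axes, against untreated day 8 (left) and untreated day 12 (right). Dashed lines mark the shares of all genes tested, 18.3% higher and 20.6% lower on the left, and 7.49% and 10.4% on the right.

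Genes that assign regional identity came next. In the list for the ventral neural tube and hedgehog signalling, 9 of 14 were higher than at untreated day 8 and 1, Foxa2, lower (adjusted p = 0.074 without treated day 12 replicate 1). The median was 0.37, and 5 were higher without treated day 12 replicate 2, without replicate 3, or with genes below the 40th percentile left out. Against untreated day 12 all 14 were lower (9 with that filter), with a median of -1.03. The list mean was 8.30, 8.32 and 8.31 at untreated day 8, 8.34, 8.99 and 8.78 at treated day 12 and 9.78, 9.95 and 9.84 at untreated day 12, so treated replicate 1 stood close to the untreated day 8 arrays.

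Netrin 1 (Ntn1), the floor plate guidance cue, was 8.80, 9.10 and 9.14 at untreated day 8 and 8.41, 9.47 and 9.17 at treated day 12, with the groups overlapping and a difference of 0.00 (adjusted p = 0.991). At untreated day 12 it was 10.86, 10.92 and 10.96, a deficit of 1.89 (adjusted p = 1.14e-06). Sim1, a hypothalamic and interneuron factor, was 7.25, 7.24 and 7.06, then 7.16, 7.77 and 7.89 at treated day 12 and 9.89, 9.68 and 9.64 at untreated day 12. The treated EBs were 2.13 below untreated day 12 (adjusted p = 4.19e-09), and the 0.42 above untreated day 8 (adjusted p = 0.0144) was not called without untreated day 8 replicate 3 (0.0666) or treated day 12 replicate 2 (0.0741) or 3 (0.122). Hhip, a hedgehog target that binds the ligand, was the clearest riser, from 6.59, 6.41 and 6.36 to 8.01, 8.64 and 8.35. The difference was 1.88 (SE 0.15, adjusted p = 2.3e-09). Nkx6-1 and Nkx2-9, homeobox factors of ventral progenitors, were higher by 0.72 and 0.78, and Gli1, the transcriptional effector, by 0.43. Dbx1, which marks progenitors at the middle of the dorsoventral axis and was in no list, was higher by 1.28 and lower than at untreated day 12 by 1.81.

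Forebrain and eye field genes stood near or below the untreated day 8 level. Of 18 measured, 2 were higher (Lhx2 and Dlx5) and 4 lower (Six6, Otx2, Hesx1 and Emx2), shares below and near those of all genes, and the median was -0.06. These counts moved to between 1 and 4 higher and to as few as 2 lower with single arrays left out. The Dlx5 call was lost without untreated day 8 replicate 2 (adjusted p = 0.0653) or treated day 12 replicate 2 (0.0817), and the Hesx1 call without treated day 12 replicate 1 (0.0719) or 3 (0.0725). Fezf1, a repressor that keeps forebrain identity, was 7.44, 7.58 and 7.69 at untreated day 8 and 7.19, 8.16 and 7.90 at treated day 12, a difference of 0.18 (adjusted p = 0.403, and 0.00319 without treated day 12 replicate 1). At untreated day 12 it was 9.67, 10.07 and 9.78, 2.09 higher than in treated EBs (adjusted p = 1.94e-08). Fezf2 and Otx1, which specify cortical projection neurons and anterior brain, differed by -0.17 and -0.08 from untreated day 8, neither called, and by -1.54 and -1.27 from untreated day 12, both called. Otx2, the anterior homeobox factor that epiblast cells also express, was 11.41, 12.17 and 11.92 at untreated day 8, 10.07, 11.11 and 10.71 at treated day 12 and 11.92, 12.25 and 11.89 at untreated day 12. Among these 3 groups it was the lowest at treated day 12, by 1.20 against day 8 (adjusted p = 0.00757, and 0.0614 without treated day 12 replicate 1). In the forebrain list 9 of 18 were lower than at untreated day 12 and 0 higher, and 2 were lower with genes below the 40th percentile left out.

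In the midbrain, hindbrain and spinal cord list 4 of 18 were higher (Hoxa2, Hoxa3, Pax3 and Irx3) and 4 lower (Fgf8, En1, Gbx2 and Hoxb1), close to the shares of all genes (1 higher with genes below the 40th percentile left out). The Gbx2 call was lost without untreated day 8 replicate 2 (adjusted p = 0.0986) or 3 (0.0642) or treated day 12 replicate 3 (0.0724), and the Hoxb1 call without untreated day 8 replicate 3 (0.149) or treated day 12 replicate 1 (0.102). Hoxa2, a hindbrain and neural crest factor, went from 6.39, 6.36 and 6.64 to 7.63, 8.48 and 7.27, a difference of 1.33 (SE 0.18, adjusted p = 4.56e-06). Pax3, a dorsal neural tube and neural crest factor, went from 7.50, 7.83 and 7.93 to 8.52, 9.06 and 8.15, a difference of 0.82, and differed from untreated day 12 by 0.01 (adjusted p = 0.985). Fgf8 fell by 1.21, and it belongs to the primitive streak list as well.

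Ptprz1, a receptor phosphatase of radial glia, was named for its difference from untreated day 12. It was 6.70, 7.35 and 7.30 at untreated day 8, 6.46, 7.35 and 6.87 at treated day 12 and 9.31, 8.66 and 9.11 at untreated day 12. Treated day 12 arrays overlapped those of untreated day 8 (a difference of -0.22, adjusted p = 0.415) and lay 2.13 below untreated day 12 (adjusted p = 3.08e-07).

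Heart and vessel genes were higher than at untreated day 8, with signals near those of untreated day 12. Of 24 cardiac muscle genes, 19 were higher than at untreated day 8 and 0 lower, with a median of 1.25, and the median against untreated day 12 was -0.02. The list mean was 8.76, 8.03 and 8.27 at untreated day 8, 9.48, 9.74 and 9.66 at treated day 12 and 9.45, 9.73 and 9.60 at untreated day 12. Myh6, the atrial myosin heavy chain, went from 7.93, 7.26 and 7.26 to 9.28, 9.65 and 9.66, a difference of 2.05 (SE 0.16, adjusted p = 2.44e-09). It was 9.78, 10.19 and 9.94 at untreated day 12, and the deficit of 0.44 was not called (adjusted p = 0.0653, and 0.0647 with the replicate number as a block). It was called with that block in a fit to these 6 arrays (0.00796) and without untreated day 12 replicate 1 (0.0485). The Z-disc protein Actn2 was higher by 1.64 and the ventricular light chain Myl2 by 0.93. Gata6, a zinc finger factor shared by heart and endoderm, was 11.56, 10.93 and 11.35 at untreated day 8, 11.51, 11.38 and 11.46 at untreated day 12 and 12.84, 12.40 and 12.77 at treated day 12, above every untreated array. The differences were 1.39 from day 8 (adjusted p = 5.98e-06) and 1.22 from day 12 (adjusted p = 0.000142).

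In the endothelial list 15 of 20 were higher than at untreated day 8 and 3 lower (Flt1, Sox17 and Etv2). These were 75% and 15%, against 18.3% and 20.6% of all genes. The list mean was 8.68, 8.08 and 8.55 at untreated day 8, and 9.08, 8.47 and 8.97 at treated day 8. At treated day 12 it was 8.89, 8.97 and 8.95, and the median difference from treated day 8 was 0.15. Without untreated day 8 replicate 2, 8 members were higher than at untreated day 8. That array had the lowest endothelial signals: Emcn, an endothelial sialomucin, was 7.18, 5.63 and 6.48 at untreated day 8 and 9.11, 9.66 and 9.16 at treated day 12. Cdh5, the endothelial cadherin, was 9.45, 7.67 and 9.10 and then 10.31, 10.65 and 10.41. Both groups were separate in both genes, with differences of 2.88 and 1.72, and they differed from untreated day 12 by -0.03 and 0.18, neither called. Kdr, the VEGF receptor of early vascular progenitors, was higher by 1.02 (adjusted p = 0.00621, and 0.053 without untreated day 8 replicate 2) and, at 11.19, 10.49 and 11.04 against 9.73, 9.72 and 9.70, stood 1.19 above untreated day 12.

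Of 15 blood genes, 4 were higher than at untreated day 8 (26.7%) and 5 lower (33.3%), with a median of -0.11. Of all genes, 18.3% were higher and 20.6% lower. With genes below the 40th percentile of mean signal left out, 1 was higher and 3 lower. The embryonic globin Hbb-y was 9.69, 6.44 and 7.88 at untreated day 8 and 11.28, 10.53 and 11.42 at treated day 12, a difference of 3.08 (SE 0.61, adjusted p = 0.000296). The embryonic globin Hbb-bh1 was 12.05, 9.03 and 11.19 and then 10.53, 10.02 and 10.45, which overlapped (adjusted p = 0.56, and 0.00826 without untreated day 8 replicate 2). Pf4, a platelet and macrophage chemokine, rose by 1.71, and Ptprc and Spi1, markers of white blood cells, by 0.58 and 0.67. The lower members were the erythroid factors Gata1 and Klf1 (each by 0.79), Lmo2 and Tal1, factors of early blood progenitors (by 0.63 and 0.40), and the erythropoietin receptor gene Epor (by 0.36). Without untreated day 8 replicate 1, Tal1 (adjusted p = 0.072) and Epor (0.346) were not called, and Epor was also not called without treated day 12 replicate 2 (0.234) or 3 (0.0743).

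Neural crest genes were mostly higher, with 8 of 12 above untreated day 8 and 2, Foxd3 and Erbb3, below. Ednrb, the endothelin receptor of crest-derived cells, went from 8.15, 7.03 and 7.36 to 10.59, 10.58 and 10.48, a difference of 3.04 (SE 0.21, adjusted p = 2.71e-10), close to the untreated day 12 signals of 10.75, 10.76 and 11.07. The AP-2 factors Tfap2a and Tfap2b were higher by 1.20 and 1.54. Sox10, the factor that defines migrating crest, had a difference of -0.08 and was not called.

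Stem cell genes were lower than at untreated day 8, while several were higher than at untreated day 12. Of 22 pluripotency genes, 19 were lower than at untreated day 8 and 0 higher, against 20.6% of all genes lower, with a median of -1.33. Between untreated day 8 and untreated day 12, 21 were lower. In treated EBs 11 of 22 were higher than at untreated day 12 and 3 lower (Sall4, Lin28b and Trim71, of which 1 was called without untreated day 12 replicate 2 or without treated day 12 replicate 1 or 3), with a median of 0.44.

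Pou5f1 (Oct4), the factor that defines the pluripotent state, was 11.49, 11.90 and 11.65 at untreated day 8, 9.35, 9.22 and 9.03 at treated day 12 and 8.44, 7.88 and 7.81 at untreated day 12. No groups overlapped: it was lower than at untreated day 8 by 2.48 (SE 0.24, adjusted p = 4.34e-08) and higher than at untreated day 12 by 1.16 (adjusted p = 0.00168). Nanog, its partner, was 12.08, 12.52 and 12.11, then 10.67, 10.46 and 10.35 at treated day 12 and 9.54, 9.39 and 8.94 at untreated day 12. It fell by 1.74 (SE 0.20, adjusted p = 5.6e-07) and stood 1.20 above untreated day 12 (adjusted p = 0.000243). Dppa2, a chromatin factor of early embryos, showed the same order, at 1.51 below untreated day 8 and 1.61 above untreated day 12. Lin28b, an inhibitor of let-7 processing that neural progenitors also express, was lower in the treated EBs than in either untreated group, by 0.65 against day 8 and 1.06 against day 12.

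Primitive streak genes gave the largest falls. Of 21 measured, 18 were lower than at untreated day 8 and 0 higher, with a median of -1.21, and the list mean of the treated day 12 arrays, 7.64, 7.71 and 7.70, was near that of the untreated day 12 arrays at 7.63, 7.42 and 7.46. Mixl1, a homeobox factor of mesendoderm, fell from 10.16, 11.06 and 11.40 to 7.56, 7.18 and 7.64, a difference of -3.42 (SE 0.38, adjusted p = 3.13e-07). Untreated day 12 arrays had 7.41, 6.85 and 6.81, and the excess of 0.44 in treated EBs was not called (adjusted p = 0.485, 0.49 with the replicate number as a block, and 0.0416 with that block in a fit to these 6 arrays). Eomes, the T-box factor of the streak, was -3.14 from untreated day 8, Cer1, a secreted Nodal and BMP antagonist, -2.86, and Foxh1, the Nodal pathway cofactor, -2.77.

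Genes of the primed epiblast were lower in 9 of 14 and higher in 3 (Sfrp2, Dnmt3a and Grb10). Fgf5, the growth factor that marks that state, was 9.75, 10.76 and 10.48 at untreated day 8 and 7.49, 8.00 and 8.05 at treated day 12, a fall of 2.48 (SE 0.35, adjusted p = 6.8e-06), and at treated day 8 it had been 7.57, 9.93 and 8.67. The DNA methyltransferase Dnmt3b fell by 2.14. Epithelial genes fell with them: 10 of 17 were lower and 3 higher (1 without treated day 12 replicate 1). The full counts were 58.8% and 17.6%, against 20.6% and 18.3% of all genes. The higher members were Dsp, Grhl3 and Trp63, by 0.53, 0.40 and 0.32. They differed from untreated day 12 by 0.77, 0.49 and -0.47, each called. Among the lower ones were the adhesion molecules Cdh1 and Epcam (by 1.21 and 1.26) and the tight junction protein Cldn4 (by 1.26). These differed from untreated day 12 by 0.05, -0.18 and -0.13, none of them called.

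The largest falls outside these lists were Cyp26a1, which degrades retinoic acid and was 10.44, 10.98 and 11.18 at untreated day 8 and 7.93, 8.37 and 7.81 at treated day 12, and Trh, the thyrotropin-releasing hormone gene, which fell by 2.75. Car2, a carbonic anhydrase, fell by 2.64, the kinase gene Pim2 by 2.58, the potassium channel gene Kcnj3 by 2.58, Vrtn by 2.56 and the fatty acid transporter Slc27a2 by 2.53.

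Among the largest rises outside the lists, Plagl1, an imprinted zinc finger gene, went from 8.33, 7.86 and 8.10 to 12.79, 12.34 and 12.62, a difference of 4.49 (SE 0.38, adjusted p = 6.03e-09). Its excess of 1.06 over untreated day 12 had an adjusted p of 0.0565 by limma, and was called with the replicate number as a block (0.0275) and in fits to these 6 arrays without the block (0.00939) or with it (0.000275). Gpr50, an orphan receptor related to melatonin receptors, was 7.47, 6.58 and 7.20 at untreated day 8, 11.52, 11.06 and 11.63 at treated day 12 and 9.89, 8.97 and 9.45 at untreated day 12. The differences were 4.32 (adjusted p = 3e-09) and 1.96 (adjusted p = 0.00036). Lrrc17 and Edil3, a leucine-rich repeat protein and an integrin-binding matrix protein, were higher by 3.92 and 3.61, and Prss35, a serine protease-like protein, and Npy1r, a receptor for neuropeptide Y, by 3.40 and 2.60.

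The nuclear factor I genes Nfib and Nfia, which act in gliogenesis and in lung and muscle mesenchyme, had 3.55 and 3.07. Nfib was 7.75, 7.30 and 7.60 at untreated day 8, 11.45, 10.59 and 11.27 at treated day 12 and 10.25, 9.50 and 9.99 at untreated day 12, so the treated arrays lay above both untreated groups. They were members of the glial list, in which 5 of 13 were higher than at untreated day 8 (2 with genes below the 40th percentile left out). The astrocyte markers Gfap and Aqp4 had differences of -0.13 and -0.06, neither called.

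Endoderm genes included rises over both untreated groups. Of 24 measured, 14 were higher than at untreated day 8, against 18.3% of all genes, with a median of 0.44. The 3 lower members were Spink1, Sox17 and Foxa2, at -1.17, -0.84 and -0.59 (1 was lower without treated day 12 replicate 1). Against untreated day 12, 11 were higher, where 7.49% of all genes were. Foxa1 and Foxa2 were lower, at -1.26 and -1.0. Alpha-fetoprotein (Afp), secreted by visceral endoderm and fetal liver, was 7.13, 6.75 and 6.61 at untreated day 8, 9.85, 9.87 and 9.74 at treated day 12 and 8.67, 8.36 and 8.39 at untreated day 12. The differences were 2.99 (SE 0.12, adjusted p = 8.04e-14) and 1.35 (adjusted p = 1.84e-07). Apolipoprotein A1 (Apoa1) was higher by 2.39 and 1.45, and albumin (Alb), from signals near 5.8, by 1.75 and 1.24. Transthyretin (Ttr) was uneven at untreated day 8, at 11.83, 9.54 and 10.25, and overlapped treated day 12, at 10.88, 11.30 and 11.07 (adjusted p = 0.316, and 0.00464 without untreated day 8 replicate 1).

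Genes of BMP signalling and of calcineurin and NFAT showed no common direction. Of 22 targets of BMP-Smad signalling, 7 were higher than at untreated day 8 (4 without untreated day 8 replicate 2) and 5 lower (3 without treated day 12 replicate 1), with a median of -0.02. The full counts were 31.8% and 22.7%, against 18.3% and 20.6% of all genes. Bambi, a decoy receptor, was 10.83, 10.00 and 10.61 at untreated day 8, 11.94, 11.26 and 11.69 at treated day 12 and 10.67, 10.59 and 10.77 at untreated day 12, higher by 1.15 and 0.95. Msx2, a homeobox target, was lower by 1.20 and differed from untreated day 12 by 0.05 (adjusted p = 0.933). Id2 was higher by 0.50, and Id1, another inhibitor of helix-loop-helix factors, had a difference of -0.40 that was not called (adjusted p = 0.0642, and 0.0207 without treated day 12 replicate 2). The ligand Bmp4 lay between 11.44 and 12.13 in all 6 arrays (a difference of 0.27, adjusted p = 0.192), and the receptors Bmpr2, Acvr1 and Acvr2a were higher by 0.70, 0.49 and 0.50.

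Of 18 calcineurin and NFAT genes, 3 were higher (Nfat5, Ppp3ca and Ppp3cc, at 0.75, 0.53 and 0.49) and 3 lower (Rcan1, Fkbp1a and Ppia), near the shares of all genes. After quantile normalization 5 were higher and 1 lower, and without untreated day 8 replicate 1 or treated day 12 replicate 1 none was called lower. The Fkbp1a and Ppia calls were also lost without untreated day 8 replicate 2 (adjusted p = 0.0722 and 0.0671) or 3 (0.0888 and 0.0728) or treated day 12 replicate 3 (0.0791 and 0.0907). Ppp3ca encodes a catalytic subunit of calcineurin, and Rcan1, a calcineurin inhibitor that NFAT itself induces, was 10.23, 9.97 and 10.05 at untreated day 8 and 9.58, 9.87 and 9.79 at treated day 12. Its difference of -0.34 (adjusted p = 0.0129) was not called without untreated day 8 replicate 1 (0.0779) or treated day 12 replicate 1 (0.0912). Treated day 8 arrays, collected as the drugs ended, had 10.28, 10.05 and 10.05. Nfatc1 had a difference of -0.19 (adjusted p = 0.167).

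Cell cycle genes were mostly lower. Of 25 measured, 23 were lower than at untreated day 8 and 0 higher, against 20.6% of all genes lower, with a median of -0.54. Mcm6, a subunit of the replicative helicase, was 11.84, 11.95 and 11.85 at untreated day 8 and 11.11, 11.30 and 11.02 at treated day 12, a difference of -0.73 (SE 0.07, adjusted p = 2.04e-08), and the other subunits Mcm3, Mcm4 and Mcm7 differed by -0.72, -0.57 and -0.74. Bub1b, a mitotic checkpoint kinase, was lower by 0.60 and Top2a, the mitotic topoisomerase, by 0.26. In comparison with untreated day 12, 10 were lower and 0 higher, a count that ranged from 1 without treated day 12 replicate 1 to 18 without treated day 12 replicate 2, and was 13 with the replicate number as a block, 1 in a fit to these 6 arrays and 5 in that fit with the block.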

How the data were processed

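Total RNA from EBs was hybridised to 24 Affymetrix Mouse Gene ST arrays, 8 groups of 3. The deposited log2 values are the authors' RMA output from Affymetrix Expression Console, per the submitters' processing notes. Neither versions nor a genome build could be read from the sources used here, and the scale was inferred from the range of the values. Probe sets were named from the platform annotation: of 35556, 21789 had 1 symbol, 1621 several and 12146 none, and 21698 matched the GRCm38.p6 gene table. Where several probe sets shared a symbol (999 genes), that of highest mean signal stood for the gene, giving 19938 genes.

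Group differences came from limma 3.58.1, run in R version 4.3.3 (lmFit and eBayes on a mean for each of the 8 groups, with all arrays in the fit and 16 residual degrees of freedom) with Benjamini-Hochberg adjustment over all genes at 0.05, checked on simulated data. p-values printed without another name are these. Folds are 2 to the power of the log2 difference. The arrays compared, the 28 gene lists and the naming rules were chosen with earlier results of these data known, so lists are described by counts and medians beside those of all genes, with no test. Named were the 12 largest non-overlapping rises and falls against untreated day 8 and the 5 against untreated day 12 (clone names, olfactory and small RNA genes and pseudogenes passed over), 32 fixed genes, and up to 4 and 3 members of each list with the smallest p. Some fixed genes are not reported here. Members in counts of 5 or fewer, and Sox10, Gfap and Aqp4, were named after their values were seen.

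Deviations of treated and untreated day 12 arrays of the same number had correlations of 0.118, 0.341 and 0.253 across genes. Arrays of different numbers had -0.402 to 0.264, the highest for treated replicate 3 with untreated replicate 1. Fits with the replicate number as a block are given beside that comparison where they change a call. The pairing comes from the data and the shared numbers in the titles, and is not certain. Alternatives were dropping genes under the 40th percentile of mean signal, quantile normalization, median centring, averaging probe sets, a robust prior with intensity trend, array weights, the block, fits to the 6 arrays, leaving out each array, and a 2-fold minimum.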

Additional observations from a re-analysis of the deposited data

Results flagged for a closer look

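For 8 of the fixed genes, the difference between day 8 and day 12 was not the same in treated and untreated EBs by limma's interaction term, adjusted over all genes. Each value below is the treated difference (day 12 minus day 8) minus the untreated one, on the log2 scale.

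Interactions were positive for 3 pluripotency and epiblast genes. For Pou5f1 the interaction was 1.98 (SE 0.34, adjusted p = 0.00217), from -1.66 in treated and -3.64 in untreated EBs. Nanog gave 1.74 (SE 0.29, adjusted p = 0.00168), from -1.20 and -2.94. Fgf5 gave 2.02 (SE 0.50, adjusted p = 0.0212), from -0.87 and -2.89, with treated day 8 arrays at 7.57, 9.93 and 8.67.

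Interactions of 3 neural genes were negative. Nes gave -1.04 (SE 0.24, adjusted p = 0.015), from 0.26 in treated and 1.30 in untreated EBs. Tubb3 gave -1.03 (SE 0.14, adjusted p = 0.00032), from 0.50 and 1.53. Dcx gave -1.59 (SE 0.24, adjusted p = 0.0006), from 1.83 and 3.41.

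Mesenchymal genes with negative interactions were Postn, at -2.54 (SE 0.71, adjusted p = 0.0384), from 1.25 and 3.79, and Twist1, at -1.31 (SE 0.35, adjusted p = 0.032), from -0.21 and 1.10. In both genes treated day 8 replicates 1 and 3 (12.69 and 12.22 for Postn) already stood above the untreated day 8 arrays.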

How the results depend on the processing

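Of 199 named genes, 171 were called between treated day 12 and untreated day 8, and 156 of these were called under every alternative other than the 2-fold minimum. Of 123 called against untreated day 12, 92 were, with the same exception. A 2-fold minimum left 748 genes higher and 246 lower against untreated day 8, 164 and 120 against untreated day 12, and 648 and 243 between the untreated days. With it, 7 neural progenitor, 6 neuronal and 9 mesenchymal regulator genes were higher than at untreated day 8, and 7 neural progenitor and 12 neuronal genes were lower and 12 matrix genes higher than at untreated day 12. With genes below the 40th percentile of mean signal left out, 11 neuronal genes were higher than at untreated day 8 and 19 lower than at untreated day 12, since fewer members were tested. With only the 6 arrays compared, 1338 genes were lower than at untreated day 12, from a fit on fewer arrays.

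Leaving out single arrays gave 919 to 1791 genes higher and 1240 to 2533 lower than at untreated day 12, the lowest counts without treated day 12 replicate 3 (919 and 1240) and replicate 1 (953 and 1361), and 17 to 28 matrix genes higher, the lowest without treated day 12 replicate 1. Against untreated day 8 the counts stayed between 3087 and 3607 higher and between 3396 and 4013 lower.

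Differences that changed sign were uncalled and near 0 in the full data, apart from Hbb-bh1. With single arrays left out they ranged, against untreated day 8, from -0.02 to 0.46 for Fezf1, -0.22 to 0.31 for Ntn1, -0.14 to 0.02 for Sox1, -1.28 to 0.22 for Hbb-bh1, -0.19 to 0.27 for Lfng, -0.17 to 0.10 for Otx1 and -0.15 to 0.02 for Sox10. Against untreated day 12 they ranged from -0.08 to 0.17 for Msx2, -0.16 to 0.03 for Dll4, -0.23 to 0.22 for Pax3, -0.20 to 0.07 for Emcn and -0.06 to 0.15 for Cdh1. Array weights gave -0.02 for Ntn1, -0.03 for Lfng, -0.01 for Msx2 and -0.18 for Pax3, and quantile normalization gave 0.03 for Emcn. The cause was not tested.

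The replicate numbers did not pair the treated day 12 with the untreated day 8 arrays (correlations of same-numbered deviations of 0.061, 0.117 and -0.299). With the replicate number as a block, 3716 genes were higher and 4217 lower over all 24 arrays, and 3100 and 3273 over the 6 arrays compared. Against untreated day 12 the block gave 1680 and 2264, and 1575 and 1930 over the 6 arrays. Beside single results, a block is over all 24 arrays unless a fit to the 6 arrays is named. With 3 arrays a group and no detection calls, differences between low signals could not be told from background.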

Other observations

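Genes for axon guidance, which steer growing neurites and also act in vessels and mesenchyme, were higher in 20 of 26 and lower in 1 (Sema6a) between untreated day 8 and treated day 12, against 18.3% and 20.6% of all genes, with a median difference of 0.77. Epha3, an ephrin receptor, was 6.26, 6.18 and 6.34 at untreated day 8 and 10.64, 9.32 and 10.38 at treated day 12. The groups did not overlap, and the difference was 3.85 (SE 0.22, adjusted p = 1.9e-11). Dcc, the netrin receptor of commissural axons, went from 7.11, 7.19 and 7.34 to 9.01, 9.24 and 8.91, a difference of 1.84, and was 1.16 below untreated day 12. Its ligand Ntn1 had a difference of 0.00 from untreated day 8. Epha7 and Sema3d, a second ephrin receptor and a secreted semaphorin, were higher by 1.15 and 1.08.

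Of 18 genes of germ cells and DNA methylation, 10 were lower than at untreated day 8 (55.6%, against 20.6% of all genes). Dnmt3a, Tet2 and Tet3 were higher (16.7%, against 18.3%). Sycp3, a component of the meiotic chromosome axis, was 8.51, 9.17 and 8.75 at untreated day 8 and 6.51, 6.52 and 6.44 at treated day 12, with no overlap, a fall of 2.32 (SE 0.26, adjusted p = 3.92e-07). Ddx4, a germ cell helicase, fell by 1.12. Trophoblast genes had 1 of 11 higher (Tpbpa, by 0.65) and 3 lower (Ascl2, Tfap2c and Cdx2), or 9.09% and 27.3%, against 18.3% and 20.6% of all genes. The Cdx2 call was lost without untreated day 8 replicate 1 (adjusted p = 0.0737) or 3 (0.12) or treated day 12 replicate 2 (0.0591). In the hypoxia and glycolysis list 2 of 14 were higher (14.3%, below the share of all genes) and 1 lower (Slc2a1, at -0.17, not called when any array but untreated day 8 replicate 3 was left out, at adjusted p from 0.0521 to 0.0903), with a median of -0.02. The higher members were the growth factor gene Vegfa, by 0.64, and the stress-response gene Ndrg1, by 0.53.

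Of 23 BMP ligands, receptors and antagonists, 6 were higher than at untreated day 8 and 5 lower (2 without untreated day 8 replicate 2 or treated day 12 replicate 1), with a median of 0.03. The full counts were 26.1% and 21.7%, against 18.3% and 20.6% of all genes. Housekeeping genes had a median difference of -0.04. Of 10, 1 was higher (B2m, by 0.28) and 4 lower, or 10% and 40%, against 18.3% and 20.6% of all genes. The lower members were the transferrin receptor gene Tfrc (-0.46), Tbp (-0.28), Rplp0 (-0.24) and Sdha (-0.18).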
